A study of Coturnix japonica with 54 samples.

Results

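The rising step from 12 h to 14 h of light was examined in male Japanese quail (Coturnix japonica), whose gonads grow and regress with the photoperiod. The samples were the 6 birds labelled 14Lv, held at 14 h of light, and the 6 birds labelled 12Lv, held at 12 h, taken by their treatment label from 54 birds in 9 groups. The step was known beforehand to follow the vernal peak of gonadotropin transcripts. The labels describe a cycle with 2 weeks at each photoperiod, in which v was read as the rising (vernal) arm and a as the declining (autumnal) arm. The same step in day length on the declining arm, 14La against 12La with 6 birds each, served for the test of whether the arms differed. The labels give no strain, age, drug or genetic change for any group. All samples are labelled as mediobasal hypothalamus, polyadenylated RNA of which was sequenced as cDNA on Oxford Nanopore flow cells.

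In birds, long days are sensed by deep-brain photoreceptors. Thyrotropin from the pars tuberalis of the pituitary then acts on tanycytes, the glial cells that line the third ventricle, and raises the deiodinase DIO2, which makes active thyroid hormone in the mediobasal hypothalamus. Gonadotropin-releasing hormone (GnRH) is then released to the pituitary, where gonadotropes make luteinising hormone and follicle-stimulating hormone (FSH). Both hormones, and thyrotropin, share the alpha subunit CGA, and a separate beta subunit gives each its identity. Prolactin, from lactotropes, climbs later in the breeding season in many birds. The question of the comparison was which of these transcripts, and which others, differed after 2 weeks at 14 h of light from their level at 12 h.

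Each bird has a column in 2 deposited tables that gave different profiles and were analysed separately. In the count table, libraries held 9101 to 88389 estimated counts in 14Lv and 8235 to 94351 in 12Lv. Pituitary transcripts were abundant there. The 5 hormone transcripts in it were CGA, FSHB, TSHB, PRL and POMC. Their summed level was 14060 to 54640 CPM (counts scaled to a library total of 1e6) in 14Lv and 9688 to 48220 in 12Lv. The 17 astrocyte and tanycyte markers in it summed to at most 609 CPM in 14Lv and 498.3 CPM in 12Lv. Of these, GFAP and AQP4 were at 0 in both groups, and RAX was at 0 in both groups of both tables. The 16 neuron markers in the count table summed to 0.0 to 12300 CPM in 14Lv and 1838 to 6495 CPM in 12Lv. In the CPM table, libraries held 307058 to 1330661 recovered reads in 14Lv and 345141 to 1142505 in 12Lv, the 16 neuron markers in it summed to 31980 to 53010 CPM in 14Lv and 27570 to 56180 CPM in 12Lv, and the pituitary hormones to no more than 361.2 CPM in 14Lv and 307.3 CPM in 12Lv. Most of the neuron sum was MAP2, which alone averaged 32770 CPM in 14Lv and 35860 CPM in 12Lv in the CPM table. In the count table MAP2 averaged 2136 CPM in 14Lv and 1969 CPM in 12Lv. By its pituitary hormones and few glial markers the count table goes against its tissue label, and its values are described as pituitary-rich. Depth, number of genes detected and the share of ACOT9, the most abundant feature of the count table, did not separate the groups (exact two-sided permutation p between 0.437 and 0.989 for 5 measures). The ACOT9 share ran from 11.2% to 48.8% of counts in 14Lv and from 12.2% to 68.6% in 12Lv. Replicate 5 of each group stood apart in the count table, with 544 genes detected in 14Lv and 963 in 12Lv and low pituitary hormone levels. Replicate 3 of each group was the shallowest in the CPM table, and values that differ by over 1.5 times, or tests that cross 0.05, without these libraries are given for the main genes and lists described.

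FSHB, the beta subunit that makes FSH, was lower in every 14Lv bird than in every 12Lv bird. In the count table the 6 14Lv libraries held 237.6, 179.9, 163.2, 153.1, 0 and 152.3 CPM of FSHB, from 21, 7, 4, 8, 0 and 3 counts. The 6 12Lv libraries held 350.1, 806.9, 1223, 1770, 495.4 and 728.6 CPM, from 12, 41, 27, 167, 9 and 6 counts. The 2 groups did not overlap: the highest 14Lv library lay below the lowest 12Lv library, and the library at 0, 14Lv replicate 5, is the sparsest of its group, where 0 of 9101 counts allows a level of up to 329.6 CPM. The means were 147.7 ± 79.02 CPM in 14Lv and 895.7 ± 522.5 CPM in 12Lv (SD, n = 6 each). An exact two-sided permutation test on log2(CPM + 1) gave p = 0.002165, unadjusted, which is the smallest p that 6 against 6 can give. The step was known to follow the gonadotropin peak, so it was not chosen blind to FSHB, and this p does not allow for that. Without replicate 5 of each group the means were 177.2 ± 35.5 CPM in 14Lv and 975.8 ± 541.5 CPM in 12Lv (SD, n = 5 each), the groups still did not overlap, and p was 0.007937, again the smallest possible.

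Across the 826 genes tested in the count table, FSHB was the only gene whose libraries did not overlap with 14Lv lower (0.121% of genes tested), and no gene had all 14Lv libraries higher (0.0%). Random grouping of the birds gives non-overlap in either direction with a probability of up to 0.002165 per gene. The share of such genes was therefore not above that level. In the fit across all genes FSHB was not called. Its log2 change was -2.66 (SE 0.80, n = 6 each), with an adjusted p of 0.369 in edgeR's quasi-likelihood test with Benjamini-Hochberg adjustment. When the same test was run on 255 transcripts in place of 826 genes, the single FSHB transcript was called, with a log2 change of -2.49 (SE 0.51) and an adjusted p of 0.00287 in edgeR. Log2 changes from the fits are on a scale corrected for library composition, so they differ from ratios of the CPM levels. In bulk samples, fewer cells of a type and less RNA per cell cannot be told apart, for FSHB or for any transcript described here.

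CGA, the alpha subunit that FSH shares with luteinising hormone and thyrotropin, overlapped widely between the groups. Its lowest, median and highest levels were 3631, 6011 and 12560 CPM in 14Lv, against 5175, 6363 and 15010 CPM in 12Lv. The log2 change was -0.37 (SE 0.35), with an exact permutation p of 0.481, so CGA did not differ beyond the spread between birds. The CPM table held CGA at a far lower level, with 225.5 ± 55.5 CPM in 14Lv and 187.4 ± 55.6 CPM in 12Lv (SD, n = 6 each), and a log2 change of 0.30 (SE 0.46). It held no read of FSHB in 14Lv and 1 read in 12Lv. TSHB, the thyrotropin beta subunit, rested on 14 counts in 14Lv and 15 counts in 12Lv in the count table, with an exact permutation p of 0.643. LHB, the beta subunit of luteinising hormone, was not analysed here.

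LOC107319226, a protein-coding feature with no symbol in the RefSeq table, was the second feature called among transcripts. The 14Lv libraries held 192.3, 436.9, 204, 363.7, 329.6 and 253.8 CPM, against 1050, 1358, 181.2, 1240, 0 and 728.6 CPM in 12Lv. There, 4 of the 12Lv birds were above every 14Lv bird, and the low pair were replicate 3 and the sparse replicate 5. The transcript test gave a log2 change of -1.54 (SE 0.39) with an adjusted p of 0.031 in edgeR, whereas the gene test gave -1.36 (SE 0.73) with an adjusted p of 0.999. The call therefore rests on the choice of features.

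PRL, which encodes prolactin, was higher in 14Lv in all birds outside replicate 5, as CPM of the library total. That total includes ACOT9, which took 11.2% of counts in 14Lv replicate 1 and 43.2% in 12Lv replicate 1. The order of single birds therefore depends on this scale. The 14Lv libraries held 17520, 19940, 24360, 21190, 4505 and 17660 CPM, against 12340, 11710, 15000, 15850, 1541 and 14210 CPM in 12Lv. The low library in each group was replicate 5. Over all 12 birds the groups overlapped, with an exact permutation p of 0.381 and a log2 change of 0.54 (SE 0.43, adjusted p = 0.999 in edgeR). Without both replicate 5 libraries the means were 20140 ± 2825 CPM in 14Lv and 13820 ± 1751 CPM in 12Lv (SD, n = 5 each), the groups did not overlap, and the exact permutation p was 0.007937, the smallest that 5 against 5 can give. The composition-corrected fit of the same birds put the change at 0.50 (SE 0.43), with an adjusted p of 1.0 in edgeR. That size is close to the 0.54 over all 12 birds. The fit takes its spread from all groups and adjusts over all genes tested, whereas the permutation p is unadjusted. Whether PRL passes a threshold therefore depends on the test and on the replicate 5 libraries.

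The hormones were also expressed as a percent of the summed counts of the 5 hormones, a scale chosen after the levels had been seen, because it does not depend on how much of a library was pituitary RNA. PRL made up 40.1 ± 4.61% of these counts in 14Lv and 28.7 ± 7.23% in 12Lv (SD, n = 6 each), with an exact permutation p of 0.00866. FSHB made up 0.311 ± 0.175% in 14Lv and 2.66 ± 1.54% in 12Lv, without overlap, with an exact permutation p of 0.002165. CGA made up 17.9 ± 9.45% in 14Lv and 24.8 ± 15.7% in 12Lv, and POMC 41.6 ± 7.67% in 14Lv and 43.7 ± 13.5% in 12Lv, with exact permutation p values of 0.418 and 0.736. These 5 shares add up to the whole, so they are not independent of one another, and the p values are unadjusted.

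POMC, the precursor of corticotropin and melanocortins made by corticotropes and by neurons of the arcuate nucleus, was level across the step in the count table. It averaged 17960 ± 7480 CPM in 14Lv and 17860 ± 8856 CPM in 12Lv (SD, n = 6 each; log2 change -0.06, SE 0.53). Its level in the CPM table was 27.6 ± 10.4 CPM in 14Lv and 34.5 ± 10.0 CPM in 12Lv, with an exact permutation p of 0.277. In that table the shallow replicate 3 was the highest 14Lv library, at 45.6 CPM, and the lowest 12Lv library, at 17.4 CPM. Without both, POMC ran between 13.8 and 30.5 CPM in 14Lv and between 33.0 and 48.6 CPM in 12Lv, with an exact permutation p of 0.007937, unadjusted. The composition-corrected fit of the same birds put the change at -0.61 (SE 0.41), with an adjusted p of 0.9999 in limma.

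**Figure D1:**
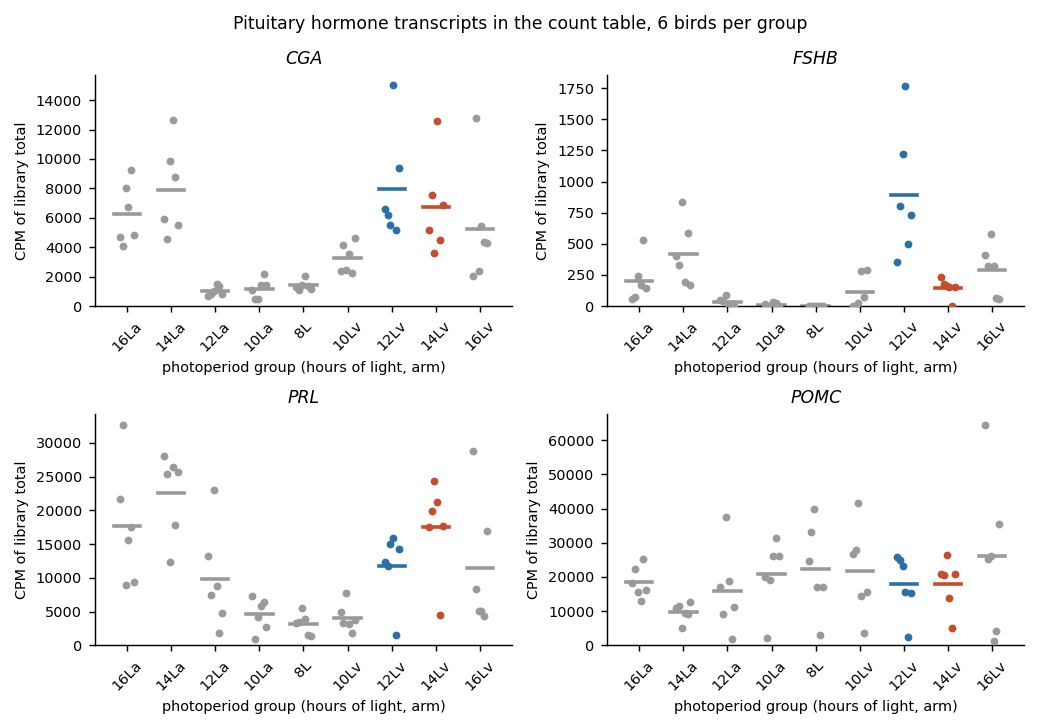
Levels of CGA, FSHB, PRL and POMC in the count table over the 9 photoperiod groups in the order they were sampled, in CPM of the library total on linear axes. Each point is 1 bird, bars are group means (6 birds), 14Lv is red and 12Lv blue. FSHB reached its highest group mean in 12Lv (895.7 CPM) and stood at 147.7 CPM in 14Lv, whereas CGA averaged 6716 CPM in 14Lv and 7957 CPM in 12Lv.

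The plot of the 4 hormones over the cycle places the step in its course. FSHB had no count in 8L, then averaged 113.8 ± 138.7 CPM in 10Lv, 895.7 ± 522.5 CPM in 12Lv, 147.7 ± 79.02 CPM in 14Lv and 292.9 ± 202.7 CPM in 16Lv (SD, n = 6 each). Its 12Lv mean was the highest of the 9 groups. CGA averaged 1405 CPM in 8L, 3246 CPM in 10Lv, 7957 CPM in 12Lv, 6716 CPM in 14Lv and 5224 CPM in 16Lv. PRL averaged 3179 CPM in 8L, 4124 CPM in 10Lv, 11770 CPM in 12Lv, 17530 CPM in 14Lv and 11430 CPM in 16Lv, so that among the rising groups its highest mean came one step after that of FSHB. The timing of these maxima was not tested.

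Among genes that serve hormone secretion none was called. All 5 tested granin and prohormone-processing genes had positive log2 changes in the count table (median 0.38, or 0.21 without both replicate 5 libraries), against a median of 0.06 and 54.1% positive over all 826 genes tested. PAM, which amidates peptide hormones, was at 1.19 (SE 0.87; 0.66, SE 0.88, without both replicate 5 libraries), SCG3 at 0.64 (SE 0.54), and the granins CHGA and CHGB at 0.14 (SE 0.51) and 0.14 (SE 0.54). POU1F1, the transcription factor of lactotropes, somatotropes and thyrotropes, was at 0.47 (SE 0.67; 0.70, SE 0.68, without both replicate 5 libraries), with 607.8 ± 398.8 CPM in 14Lv and 380.4 ± 125.5 CPM in 12Lv (SD, n = 6 each). Only 4 of 9 granin and processing genes were positive in the CPM table, with a median of -0.00 (3 of 9 and -0.04 without both replicate 3 libraries). Cytosolic ribosomal protein genes had 23 of 73 positive with a median of -0.12 in the count table, and 38 of 71 positive with a median of 0.01 in the CPM table. Without both replicate 3 libraries of the CPM table, 49 of 71 were positive with a median of 0.05.

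The same step was then compared between the arms, which asks whether 14 h against 12 h of light had a different sign or size on the rising than on the declining arm. The arms share no birds. The declining arm came earlier in the cycle, so arm and time in the study cannot be told apart. Likewise 14Lv came after 12Lv, whereas 14La came before 12La. The count table held 232855 counts in 14Lv and 227909 in 12Lv, against 419407 in 14La and 439936 in 12La. The part of depth in the difference between the arms was not tested. Of 826 genes in the count table, 3 were called with a lower change on the rising arm (0.363% of genes tested) and none as higher (0.0%): CGA, FSHB and LOC107319226. For CGA the difference between the arms was -3.26 on the log2 scale (SE 0.50, adjusted p = 3.31e-05 in edgeR), from a change of -0.37 on the rising arm and 2.89 (SE 0.37) on the declining arm. For FSHB it was -6.28 (SE 1.16, adjusted p = 0.000996 in edgeR), from -2.66 on the rising and 3.62 (SE 0.84) on the declining arm. For LOC107319226 it was -5.63 (SE 1.10, adjusted p = 0.00149 in edgeR), from -1.36 on the rising and 4.27 (SE 0.84) on the declining arm.

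On the declining arm these 3 genes were the ones called as higher in 14La than in 12La (0.363% of 826), with none lower (0.0%). CGA averaged 7890 ± 3088 CPM in 14La and 1033 ± 338 CPM in 12La (SD, n = 6 each). FSHB averaged 420.1 ± 256.0 CPM in 14La and 30.1 ± 36.8 CPM in 12La. LOC107319226 averaged 571.0 ± 188.2 CPM in 14La and 31.5 ± 29.2 CPM in 12La. Thus the gonadotropin subunits stood high at 14 h and low at 12 h while days shortened, whereas while days lengthened their means at 14 h were below those at 12 h, for CGA within the spread between birds. PRL had a change of 0.54 (SE 0.43) on the rising and 1.34 (SE 0.43) on the declining arm, and the difference of -0.81 (SE 0.60) was not called (adjusted p = 1.00 in edgeR). The 3 calls remained under all alternatives run except a minimum count of 30, which tested 183 genes and left FSHB and LOC107319226 out.

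**Figure D2:**
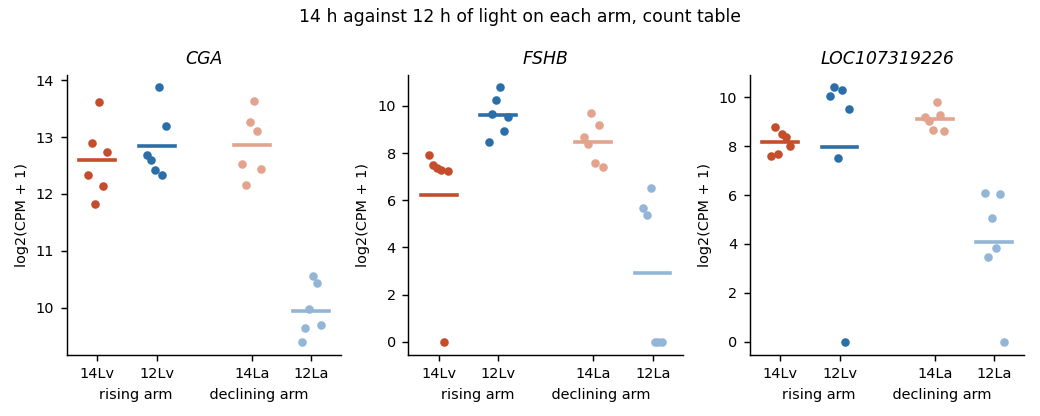
CGA, FSHB and LOC107319226 in single birds at 14 h and 12 h of light on each arm, as log2(CPM + 1) from the count table. Points are birds (6 per group) and bars are means of the log2 values. On the rising arm FSHB is lower in all 14Lv birds than in all 12Lv birds, and on the declining arm CGA and LOC107319226 are higher in all 14La birds than in all 12La birds.

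Over the count table as a whole no gene was called at the step in either direction (0.0% of 826 higher, 0.0% lower, edgeR). An unadjusted p below 0.05 was found for 38 genes, no more than the threshold alone would give. The count of calls was also 0 with DESeq2, limma-voom and edgeR with other size factors. There, 41, 46 and 39 genes had an unadjusted p below 0.05, close to the number that the threshold alone would give. Without a filter on low counts edgeR called 15 of 16442 genes, 7 higher and 8 lower. The table is sparse: of the 826 genes, 122 had a count in all 12 libraries and 289 in 6 or fewer.

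Beside FSHB, the genes with the smallest p values in the count table were ones found in a few birds only. DNM1, the dynamin that retrieves synaptic vesicles, had counts in 3 of 6 14Lv libraries (939, 2897 and 253.8 CPM) and in no 12Lv library, with an edgeR adjusted p of 0.369. C2CD5, a protein of vesicle traffic, had counts in 4 of 6 14Lv libraries, up to 1469 CPM, and in no 12Lv library. TET1, which oxidises methylated cytosine, had 25, 24 and 15 counts in 3 of the 14Lv libraries and 1 count in 12Lv. ARID5B, a DNA-binding protein, and KIF1A, a motor of axonal transport, each had counts in 3 of 6 14Lv libraries and in no 12Lv library. FOXN3, a forkhead factor, ATXN1 and the atypical cadherin FAT1 had counts in 4, 3 and 4 of 6 14Lv libraries, against 2, 0 and 2 of 6 12Lv libraries. The CPM table did not repeat most of these directions. Its log2 changes were -0.22 for DNM1, -1.78 for C2CD5, -0.21 for KIF1A, -0.40 for FOXN3 and -0.14 for FAT1. Positive there were TET1 at 0.39 (SE 0.65) and ARID5B at 0.48 (SE 0.57).

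In the other direction ARVCF, a catenin, had no count in 14Lv and 2, 63 and 81 counts in 3 of the 12Lv libraries. PRXL2C, a peroxiredoxin-like protein, had none in 14Lv and 1, 6 and 12 counts in 3 of the 12Lv libraries. RIMS2, an active-zone scaffold, had 4 counts in 1 14Lv library, against 34, 3 and 41 counts in 3 of the 12Lv libraries. NRG4, a ligand of the epidermal growth factor family, had 2 counts in 14Lv and 45 counts in 12Lv. DAB1, the adaptor of reelin signalling, had no count in 14Lv and 34 counts in 12Lv, all in replicate 2. PTK2, the focal adhesion kinase, had 6 counts in 14Lv and 83 counts in 12Lv. None of these genes was called in the fit of 826 genes.

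**Figure D3:**
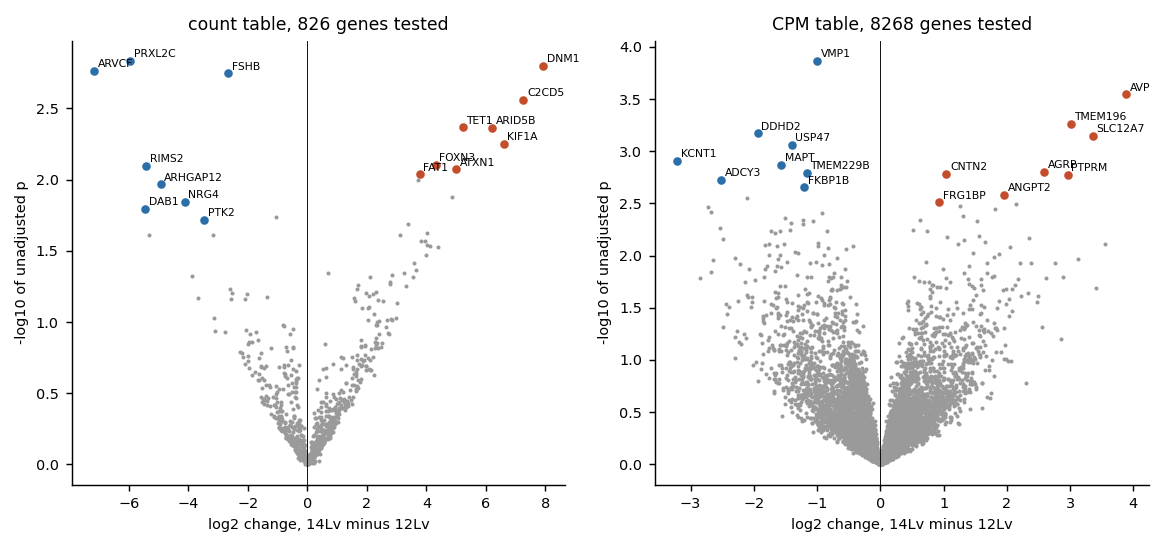
Log2 change (14Lv minus 12Lv) against -log10 of the unadjusted p for every gene tested, 826 in the count table (edgeR) and 8268 in the CPM table (limma). Coloured points are the genes with the smallest p in each direction, red where 14Lv was higher and blue where it was lower. FSHB lies at -2.66 and AVP at 3.89, and no gene passed an adjusted p of 0.05 in either table.

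In the CPM table, which resembles the labelled tissue, limma called no gene at the step (0.0% of 8268 higher, 0.0% lower). An unadjusted p below 0.05 was found for 347 genes, fewer than the threshold alone would give. On the recovered reads, limma-voom and edgeR each called 0, with 330 and 274 genes below that unadjusted p, and DESeq2 called 1, AVP. Genes whose libraries did not overlap numbered 4 with 14Lv higher (0.0484% of genes tested) and 8 with 14Lv lower (0.0968%). These shares were not above the probability of 0.002165 per gene that random grouping of the birds gives for both directions together. The 4 were AVP, ITFG2, LOC101748294 and the splicing factor SRSF11. The 8 were AGPAT5, GLTSCR2, IQCE, LOC101748673, LRIG1, REEP2, USP47 and ZCCHC6. These names were listed after their values were seen.

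AVP had the smallest p among genes higher in 14Lv. It encodes the precursor of vasotocin, the avian antidiuretic peptide, made by magnocellular neurons that project to the posterior pituitary and by smaller neurons of the hypothalamus. The 14Lv libraries held 1275, 411.6, 1162, 332.1, 210.1 and 2237 CPM, against 35.3, 29.1, 26.1, 33.9, 53.4 and 171.7 CPM in 12Lv. Every 14Lv bird exceeded every 12Lv bird, and the 14Lv birds themselves spanned a wide range. The log2 change was 3.89 (SE 0.99, n = 6 each), with an adjusted p of 0.999 in limma and 0.0195 in DESeq2, so the call depends on the tool.

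OXT, a paralogue that encodes mesotocin, the avian form of oxytocin, showed the same order. It ran at 16.2, 75.6 and 255.2 CPM (lowest, median and highest) in 14Lv, against 0, 6.01 and 31.6 CPM in 12Lv, with a log2 change of 3.55 (SE 1.28, adjusted p = 0.999 in limma). AVP and OXT share a similar neurophysin-coding part, and whether reads were split between them was not tested. Over the 9 groups AVP averaged 265 to 680 CPM in the 7 groups outside the step, 938 ± 778 CPM in 14Lv and 58.2 ± 56.4 CPM in 12Lv, so 12Lv held the lowest and 14Lv the highest mean. OXT likewise had its lowest mean in 12Lv, at 9.13 ± 11.3 CPM, and its highest in 14Lv, at 112.5 ± 101.8 CPM. SIM1, a transcription factor of the nuclei that hold magnocellular neurons, had a log2 change of -0.20 (SE 0.68). OTP, another such factor, had 3 libraries with 1 read each in 14Lv and no read in 12Lv. How much of those nuclei each sample held was not measured, and its part in the AVP and OXT values was not tested.

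Peptides of the arcuate nucleus and lateral hypothalamus that act on feeding had mostly positive changes, none of them called by limma. Of the 7 energy-balance peptide and receptor genes tested 5 had positive changes, with a median of 0.46, against -0.02 and 47.9% positive over all 8268 genes. PMCH and the receptor gene NPY5R had negative log2 changes, of -0.37 (SE 0.57) and -0.04 (SE 0.84). POMC, which was not in this list, also had a negative change, of -0.32 (SE 0.38). AGRP, the melanocortin antagonist that raises feeding, held 36.7, 11.3, 19.5, 24.9, 13.2 and 17.4 CPM in 14Lv, against 7.71, 0, 0, 11.8, 0.875 and 5.92 CPM in 12Lv. The groups overlapped by a single pair, the lowest 14Lv bird at 11.3 CPM and the highest 12Lv bird at 11.8 CPM. The exact permutation p was 0.00433, unadjusted, and limma gave a log2 change of 2.59 (SE 0.77, adjusted p = 0.999). These levels rest on 112 reads in 14Lv and 22 reads in 12Lv. Without both replicate 3 libraries the means were 20.7 ± 10.4 CPM in 14Lv and 5.26 ± 4.89 CPM in 12Lv (SD, n = 5 each; exact permutation p = 0.0159).

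NPY, the orexigenic peptide made in the same arcuate neurons as AGRP, ran at 110.6, 159.8 and 205.3 CPM (lowest, median and highest) in 14Lv, against 84.8, 106.9 and 166.8 CPM in 12Lv. Its log2 change was 0.46 (SE 0.23), with an exact permutation p of 0.0823. HCRT, the orexin precursor of the lateral hypothalamus, averaged 441.8 ± 117.9 CPM in 14Lv and 290.8 ± 126.7 CPM in 12Lv (SD, n = 6 each; log2 change 0.68, SE 0.31, adjusted p = 0.999 in limma). CARTPT, an anorexigenic peptide precursor, averaged 18.7 ± 8.64 CPM in 14Lv and 11.9 ± 8.10 CPM in 12Lv, with an exact permutation p of 0.128. On the declining arm AGRP had a change of 2.24 (SE 0.77) between 14La and 12La, and the difference between the arms was 0.35 (SE 1.09), which was not called.

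**Figure D4:**
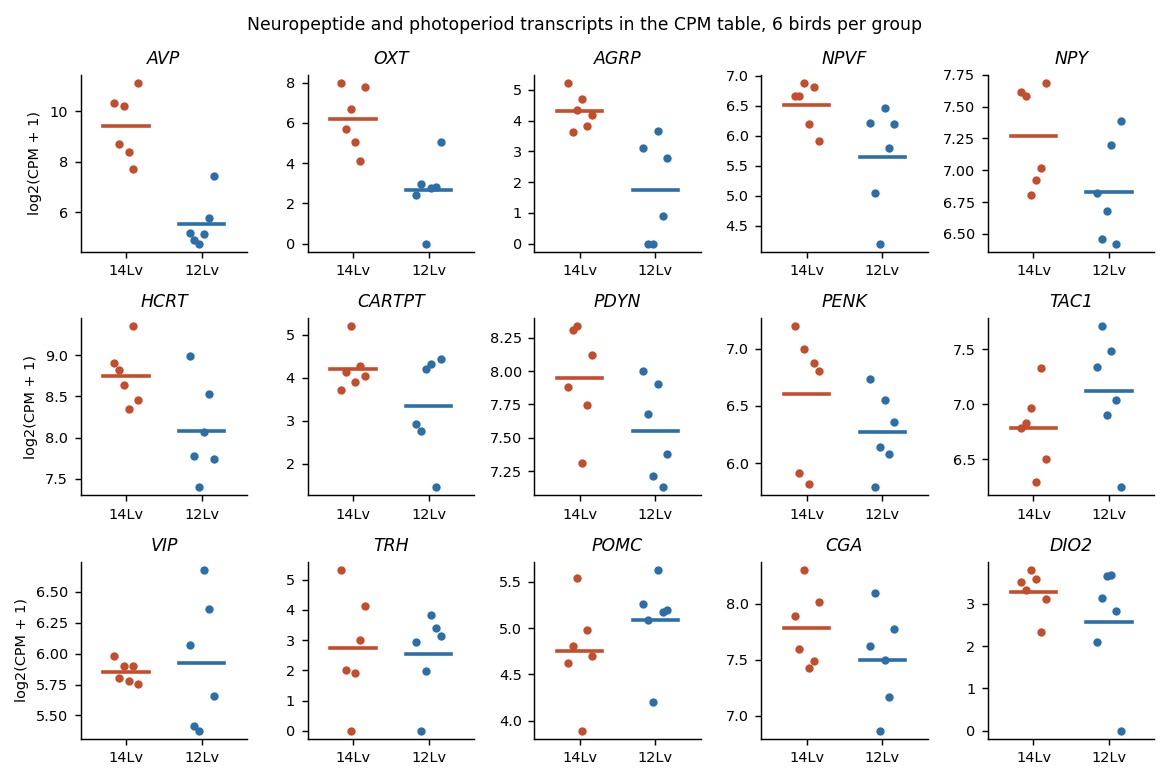
Neuropeptide and photoperiod genes in the CPM table as log2(CPM + 1), 14Lv (red, left) and 12Lv (blue, right). Points are birds (6 per group), bars are means of the log2 values, and each panel has its own axis, which need not start at 0. AVP does not overlap between the groups (lowest 14Lv bird 210.1 CPM, highest 12Lv bird 171.7 CPM), AGRP overlaps by 1 pair of birds, and VIP and TRH overlap fully.

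Among reproductive neuropeptides 5 of 7 genes tested had positive changes, with a median of 0.30, which was 0.04 without both replicate 3 libraries. NPVF encodes gonadotropin-inhibitory hormone, which acts on GnRH neurons and gonadotropes. It held 99.6, 100.6, 117.1, 72.0, 110.6 and 58.8 CPM in 14Lv, against 72.7, 32.0, 17.4, 86.8, 54.2 and 72.0 CPM in 12Lv. In 14Lv, 4 birds were above every 12Lv bird, and the exact permutation p was 0.0368, unadjusted, with a log2 change of 0.88 (SE 0.40, adjusted p = 0.999 in limma). The p was above 0.05 in 8 of 15 alternatives, reaching 0.135 without both replicate 3 libraries. The opioid precursors PDYN and PENK had log2 changes of 0.41 (SE 0.32) and 0.34 (SE 0.26), TAC1, the substance P precursor, of -0.32 (SE 0.24), and VIP, the prolactin-releasing peptide of birds, averaged 56.9 ± 3.50 CPM in 14Lv and 63.4 ± 24.4 CPM in 12Lv (SD, n = 6 each; exact permutation p = 0.742). GNRH1 had no read in 14Lv, which allows a level of up to 0.543 CPM over the group, and 4 reads in 4 birds in 12Lv (exact permutation p = 0.0606, and 0.0476 without both replicate 3 libraries, which held no read).

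The thyroid hormone switch of long days showed no called difference. DIO2 averaged 9.23 ± 3.11 CPM in 14Lv and 6.76 ± 4.64 CPM in 12Lv (SD, n = 6 each), from 48 reads in 14Lv and 30 reads in 12Lv, with an exact permutation p of 0.275. DIO3, the deiodinase that inactivates thyroid hormone, had no read in either group. TSHR, the thyrotropin receptor, rested on 10 reads in 14Lv and 8 reads in 12Lv, with an exact permutation p of 0.727. CRYM, which binds thyroid hormone in the cytosol, had an exact permutation p of 0.422, EYA3, a long-day coactivator of the pars tuberalis in mammals, of 0.442, and OPN5, a deep-brain photopigment, of 0.773. A difference in DIO3 was not detectable at this depth. In all, 1 of 17 photoperiod and pituitary genes in the count table (FSHB) and 2 of 25 in the CPM table (AGRP and NPVF) had an unadjusted exact permutation p under 0.05. Without both replicate 3 libraries of the CPM table it was 3, namely AGRP, POMC and GNRH1. The threshold alone would give at most 0.85 of 17 and 1.25 of 25, since genes with counts in 1 bird could not reach 0.05. With numbers this small the counts were not read as an excess.

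**Figure D5:**
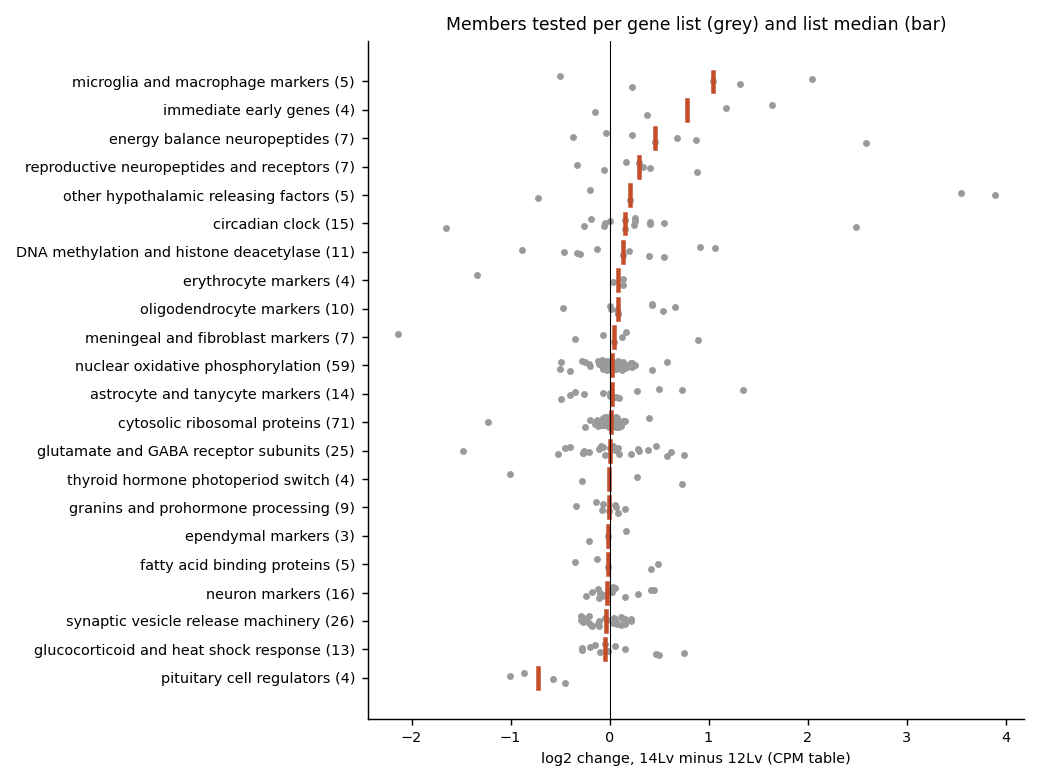
Log2 change (14Lv minus 12Lv) in the CPM table for the tested members of each gene list, with the number tested in brackets. Grey points are genes and the red bar is the list median. The 71 ribosomal protein genes and 59 oxidative phosphorylation genes centre near 0, and the 5 microglia and macrophage markers have a median of 1.05.

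No member of any gene list was called by limma in the CPM table. Neuron markers had 7 of 16 positive with a median of -0.03, glutamate and GABA receptor subunits 12 of 25 with a median of -0.00, synaptic vesicle genes 12 of 26 with a median of -0.04, and nuclear oxidative phosphorylation genes 39 of 59 with a median of 0.03. Without both replicate 3 libraries, oxidative phosphorylation genes had 51 of 59 positive with a median of 0.105, against 4073 of 8218 positive over all genes in both fits. Neuron markers then had 9 of 16 positive with a median of 0.04. Receptor subunits had 11 of 25 with a median of -0.04, and synaptic vesicle genes 13 of 26 with a median of -0.00. Oligodendrocyte markers had 9 of 10 positive with a median of 0.08 (8 of 10 and 0.05 without both replicate 3 libraries). Astrocyte and tanycyte markers had 9 of 14 positive with a median of 0.02 (10 of 14 and 0.05 without both replicate 3 libraries). Heat shock and glucocorticoid response genes had 5 of 13 positive with a median of -0.05 (-0.15 without both replicate 3 libraries). Immediate early genes, which respond to neuronal activity and to handling, had 3 of 4 positive with a median of 0.78, with ATF3 at 1.64 (SE 0.82; 1.06, SE 0.89, without both replicate 3 libraries), FOS at 0.38 (SE 0.29) and JUN at -0.15 (SE 0.39). Only 3 of these genes were also tested without both replicate 3 libraries, where their median was 0.21, against 0.38 for the same 3 with all libraries. Of lists with few tested members, the 4 pituitary cell regulators were all negative with a median of -0.72, and so were both endothelial and pericyte markers, PECAM1 at -1.27 (SE 1.21) and RGS5 at -0.49 (SE 0.36).

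Microglia and macrophage markers had 4 of 5 positive changes with a median of 1.05, which was 0.63 without both replicate 3 libraries. Their summed level over the 11 markers in the table was 35.3 to 115.7 CPM in 14Lv and 8.69 to 70.5 CPM in 12Lv, so the groups overlapped. SPI1, the transcription factor that specifies the myeloid lineage, averaged 15.6 ± 6.65 CPM in 14Lv and 3.91 ± 3.49 CPM in 12Lv (SD, n = 6 each), with a log2 change of 2.05 (SE 0.74, adjusted p = 0.999 in limma). CD74, the invariant chain of antigen presentation, averaged 24.4 ± 17.1 CPM in 14Lv and 9.35 ± 4.002 CPM in 12Lv, with a log2 change of 1.05 (SE 0.49), and of 0.63 (SE 0.52) without both replicate 3 libraries. C1QC, a complement subunit made by microglia, had a log2 change of 1.32 (SE 0.78), and PTPRC, the pan-leukocyte antigen, of -0.50 (SE 0.86). Erythrocyte markers, a measure of blood in the samples, summed to 1050 to 2312 CPM in 14Lv and 882.6 to 2139 CPM in 12Lv.

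Clock genes had 10 of 15 positive changes with a median of 0.16 (0.27 without both replicate 3 libraries), and the paralogues ARNTL and ARNTL2, partners of CLOCK, had opposite signs. ARNTL2 averaged 17.02 ± 9.29 CPM in 14Lv and 5.98 ± 10.1 CPM in 12Lv (SD, n = 6 each; log2 change 2.49, SE 1.07), with 12Lv reads in 2 birds only. ARNTL averaged 5.71 ± 5.01 CPM in 14Lv and 22.9 ± 24.2 CPM in 12Lv (log2 change -1.65, SE 0.75), where 69.5 CPM in the shallow 12Lv replicate 3 was the highest value. Neither was called (adjusted p = 0.999 in limma for each). FN1, the matrix protein fibronectin, had a log2 change of -2.14 (SE 0.87), while the 7 meningeal and fibroblast markers tested had a median of 0.05.

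The genes with the smallest p among those lower in 14Lv were led by VMP1, a membrane protein of the endoplasmic reticulum needed for autophagy. It held 62.0, 68.3, 39.05, 45.7, 86.3 and 56.9 CPM in 14Lv, against 55.1, 134.7, 118.7, 131.0, 84.8 and 267.4 CPM in 12Lv. The groups overlapped through 12Lv replicates 1 and 5. The log2 change was -0.9985 (SE 0.24, adjusted p = 0.999 in limma), and without 12Lv replicate 1 it was -1.23 and the gene was called (adjusted p = 0.0197 in limma).

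USP47, a deubiquitinase, did not overlap between the groups, with 30.6, 28.5, 3.25, 38.8, 28.4 and 49.2 CPM in 14Lv, against 56.2, 55.2, 81.1, 51.6 and 58.2 CPM in 12Lv replicates 1, 2, 3, 5 and 6 and more than any of these in 12Lv replicate 4. Its log2 change was -1.40 (SE 0.39), and the lowest value, 3.25 CPM, was 1 read in the shallow 14Lv replicate 3. Without that library the change was -0.86, and without both replicate 3 libraries -0.79. MAPT, the axonal microtubule protein tau, ran at 52.1, 147.3 and 265.1 CPM (lowest, median and highest) in 14Lv, against 204.7, 317.9 and 871.6 CPM in 12Lv, with a log2 change of -1.57 (SE 0.46). The extremes of MAPT were both in replicate 3, without which the change was -1.03. Also lower were DDHD2, a brain lipase (-1.94, SE 0.53), KCNT1, a sodium-activated potassium channel (-3.21, SE 0.94), ADCY3, an adenylyl cyclase (-2.52, SE 0.77), FKBP1B, which binds ryanodine receptors (-1.21, SE 0.37), and TMEM229B (-1.16, SE 0.35). Each had an adjusted p of 0.999 in limma.

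Among genes higher in 14Lv, SLC12A7, a potassium-chloride cotransporter, ran at 8.12, 25.7 and 52.1 CPM (lowest, median and highest) in 14Lv, against 0, 0.736 and 15.8 CPM in 12Lv (log2 change 3.36, SE 0.93). TMEM196 had reads in 6 of 6 14Lv birds and in 2 of 6 12Lv birds (3.01, SE 0.81). PTPRM, a receptor tyrosine phosphatase of cell adhesion, was at 2.96 (SE 0.89), ANGPT2, a vascular growth factor, at 1.96 (SE 0.62), CNTN2, an axonal adhesion protein, at 1.04 (SE 0.31), and FRG1BP at 0.93 (SE 0.30), or 0.59 without both replicate 3 libraries. None was called (adjusted p = 0.999 in limma for each).

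No gene was called in the difference between the arms in the CPM table (0.0% higher and 0.0% lower of 8268, limma). There, 278 genes had an unadjusted p under 0.05, fewer than the threshold alone would give. DESeq2 on the recovered reads called 1. That gene, C7H2ORF66, averaged 9.46 ± 2.36 CPM in 14Lv and 11.3 ± 9.03 CPM in 12Lv, and 21.4 ± 11.3 CPM in 14La and 1.42 ± 1.27 CPM in 12La (SD, n = 6 each). Its difference between the arms was -3.25 on the log2 scale (SE 0.76), with an adjusted p of 0.717 in limma and 0.00565 in DESeq2. It was the single gene that limma called as higher in 14La than in 12La (0.0121% of 8268, with 0.0% lower), with a change of 3.25 (SE 0.54, adjusted p = 0.00164). For AVP the difference between the arms was 3.49 (SE 1.41), which was not called. Other genes with small p in this difference were SRP54, AFDN, PSMD2 and P4HA1 with positive values, and ATP8A2, PARP8 and CALR with negative values, none of them called by any tool run.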

How the data were processed

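RNA of 54 birds was sequenced as Nanopore cDNA. Tools named in the submitters' processing notes are Salmon 0.14.2, minimap2 2.17 and edgeR 3.24.3. Which step each did, and the build, is not given in the sources used here. The authors deposited a table of CPM per gene, each column summing to 1e6 (14 names turned into dates were left out of 19930). The authors also deposited a table of estimated counts, not normalised, for 40282 transcripts, which were here summed to 16448 genes and rounded. The smallest steps of the deposited CPM values gave whole reads for 99.7% to 100.0% of values per library (tolerance 0.1 read). Replicates 3 and 6 of 16Lv differed by less than the sampling noise in the CPM table (chi-square per degree of freedom 0.954) and were counted as 1 sample.

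For the count table edgeR 4.0.16 quasi-likelihood tests were run with TMM factors and filterByExpr (minimum count 10). The CPM table was tested with limma-trend (limma 3.58.1) on log2(CPM + 1), with CPM scaled by TMM, keeping genes that reached 10 CPM in 6 or more libraries. Fold changes on this scale understate changes of low genes. Each table had 1 fit of 9 group means, in R 4.3.3, with Benjamini-Hochberg adjustment over all genes tested and calls at 0.05. The SE of an edgeR change was taken as its size over the square root of F. Levels are CPM of the library total. Photoperiod and pituitary genes were also tested with exact two-sided permutation tests on log2(CPM + 1) (SciPy 1.17.1). Named genes were the 8 smallest p values per direction at the step and 4 per direction between the arms, beside these; 1 of them is not described here. Alternatives included DESeq2 1.42.0, limma-voom, other size factors, filters and pseudocounts, and leaving out each library. The tests were checked on simulated data. In the count table, 8% of genes with a true log2 change of 1.5 in size were called, and 41% of those with 3. In the CPM table it was 49% and 88%. Benjamini-Hochberg adjustment is stricter where fewer genes change, so these shares may overstate detection at the real step. The absence of calls in the count table therefore leaves changes of this size possible. The genes and lists were chosen with earlier results of these data known.

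The labels do not say whether the birds of a group were raised or sampled apart, so p-values measure only the spread between these samples. Bird numbers follow the order in which the samples are listed, which matches the order of their titles in the groups compared. The main tests did not pair samples by these numbers. In the CPM table the shallowest library was replicate 3 in both groups of each arm, and also in 10La, 8L and 10Lv. A replicate block and correlations by bird number are given below. No test of a link between same-numbered birds was made. Limits from a count of 0 use 3 counts and cover counting error only, since cDNA reads are not independent molecules. No genome coordinates or sequences are given. The RefSeq table of Coturnix japonica 2.1 holds 58.3% of the gene names that have CPM values.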

Additional observations from a re-analysis of the deposited data

Results flagged for a closer look

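In 106 groups of 6 birds checked for a value that stands apart from the others (Dixon's test), 14 were found. The test's threshold gives about 1 in 20 groups for independent, normally distributed values. CPM with many values at 0 are not such values, so the 14 cannot be set against that rate. Of the 14, 8 values of the count table were in the sparse 14Lv replicate 5 or 12Lv replicate 5. In 14Lv replicate 5, PRL stood at 4505 CPM, CHGA at 879 CPM, and FSHB, TSHB and CHGB at 0.0 CPM. In 12Lv replicate 5, PRL stood at 1541 CPM, POMC at 2477 CPM and LOC107319226 at 0.0 CPM. Genes with counts in a single bird of a group were RIMS2 (45.2 CPM in 14Lv replicate 1), NRG4 (38.3 CPM in 14Lv replicate 4), TET1 (19.7 CPM in 12Lv replicate 2) and DAB1 (669.1 CPM in 12Lv replicate 2). In the CPM table the shallow 14Lv replicate 3 stood apart for CARTPT, high at 35.8 CPM, and for USP47, low at 3.25 CPM. The part of library depth in these values was not tested.

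The step differed between the arms for 3 genes of the count table by the test of the difference itself. The change on the rising arm minus that on the declining arm was -3.26 for CGA, -6.28 for FSHB and -5.63 for LOC107319226 on the log2 scale.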

How the results depend on the processing

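Of 1271 alternative values for 51 results, 1248 kept their direction and side of the threshold, 14 gained a call, 8 lost one and 1 lost its direction, the DAB1 change, which ran from -5.65 to 0.0 without single libraries and was 0.0 without 12Lv replicate 2, the only bird with counts. At the step, the count table gave 15 calls with no filter and 2 among transcripts, and 0 without any single library (edgeR). The CPM table gave 1 call with DESeq2 (AVP) and 0 to 1 when single libraries were left out (VMP1 without 12Lv replicate 1). Between the arms, the count table gave 6 calls with limma-voom, 1 with a minimum count of 30, 65 with no filter and 3 to 5 when single libraries were left out, and the CPM table gave 1 with DESeq2 (C7H2ORF66) and 0 without any single library. Of the genes tested singly, 2 of the count table had an exact permutation p under 0.05 without both replicate 5 libraries (FSHB and PRL), and 1 to 2 when single birds were left out. For the CPM table it was 3 without both replicate 3 libraries (AGRP, POMC and GNRH1), and 1 to 3 when single birds were left out. All 8 losses were of the NPVF permutation test, with p up to 0.135. The cause of these differences was not tested, except that filters and transcripts change the number of features tested. The FSHB change among genes ran from -2.86 to -2.32 over its alternatives, with adjusted p values of 0.0891 to 0.713 in edgeR, DESeq2 or limma; the test among transcripts, with an adjusted p of 0.00287 in edgeR, was the one alternative that called it. A replicate block by bird number, added after the data were seen, left 0 calls at the step in both tables. Deviations of same-numbered birds of the 2 groups had correlations of -0.0296 to 0.287, the highest for bird 5 in the count table. Bird 3 had the fewest genes of its group in the CPM table in 14Lv, 12Lv, 14La and 12La. Bird 5 had the fewest in the count table in 14Lv, 12Lv and 12La. Whether same-numbered samples shared a processing step was not tested. Depth limits the count table, where 289 of 826 genes had counts in 6 or fewer of the 12 libraries.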
